A study of Mus musculus with 6 samples.

Results

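In mProx24, a line of mouse kidney cells derived from the proximal tubule (strain C57B6), RNA levels were compared between a culture given triple stimuli at 1% oxygen and a culture given a single stimulus at 20% oxygen. The comparison took 2 of the 6 single-colour Agilent arrays of the series, chosen by their labels, and 15633 of 34733 gene names were well above background on both. The triple culture was exposed to hypoxia, to palmitate, a saturated fatty acid, and to high glucose. The other array, called array A here, is labelled high glucose in its scanner file, whereas the authors' value table carries the same measurements under high FFAs (free fatty acids), the palmitate condition. The culture therefore differed from the triple culture by hypoxia plus palmitate under the first label, and by hypoxia plus high glucose under the second, and neither label was preferred. The remaining arrays were a control, array B (labelled the other way round from array A), hypoxia alone, and the triple stimuli plus rapamycin, which blocks the growth-controlling kinase complex mTORC1.

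The labels describe 12 hours at 1% oxygen followed by 9 hours with 150 µM palmitate carried on 0.15% bovine serum albumin. Rapamycin, at 0.4 µg/ml, preceded the palmitate by 12 hours. Control, array A and array B were kept at 20% oxygen. All cultures shared a medium with fetal calf serum, and cultures without palmitate carry a label for PBS. No glucose concentration is given in the sources used here. Each condition had 1 array, so no difference here has a replicate error or a p-value, and precision is limited by the number of arrays.

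Levels are log2 signals relative to the 75th percentile of the array, so a level of 0 marks that percentile, and a gene counted as higher or lower when its level differed by at least 1 on the log2 scale, which is 2-fold. The triple array had 40.3% of its 59305 non-control spots well above background and array A 43.1%, with 0 saturated. The 3 arrays at 20% oxygen lay on the first row of the slide and the 3 at 1% oxygen on the second, so oxygen and the row of the slide cannot be told apart. Among defining genes of the proximal tubule, 4 of 10 were well above background on both arrays, namely the endocytic receptors Lrp2 and Cubn, the water channel Aqp1 and Ggt1. The transporters Slc34a1, Slc5a2 and Slc22a6 and the factor Hnf4a were on none of the 6 arrays. Of 6 epithelial genes, 4 were well above background on both arrays, namely Krt8, Krt18, Cldn7 and Pax8. The epithelial adhesion genes Cdh1 and Epcam were on no array. Summed over its 10 genes, the proximal tubule list stood at 3.56 on the triple array and 3.66 on array A (log2 scale). The same sum was 4.47 in control, 4.61 on array B, 4.56 in hypoxia and 3.19 with rapamycin. On the triple array and array A, the epithelial sum was 7.75 and 7.36 and the immune sum 4.65 and 4.47. Of 7 immune genes, 4 were well above background on the triple array (Csf1r, Itgam, Cd68 and Cd3e) and 5 on array A, which added Cd79a. Csf1r (3.68) and Itgam (3.24) stood above Lrp2 (2.43) on the triple array, and the pan-leukocyte gene Ptprc was on no array. The endothelial list had 1 of 6 genes on the triple array (Kdr, 3.08) and 2 on array A (Kdr and Pecam1). The podocyte list had 1 of 5 on each (Synpo). The distal tubule and collecting duct list had 1 of 7 on the triple array (Aqp2) and 2 on array A (Aqp2 and Aqp3). The fibroblast list had 1 of 7 genes on the triple array (Postn) and 0 on array A. The part of these cell type markers in the results was not tested.

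The lipid-handling genes Angptl4 and Plin2, picked after their values were seen, stood above control on both compared arrays. Angptl4, a secreted inhibitor of lipoprotein lipase, had a level of 4.53 on array A and 4.20 in triple stimuli, against 1.29 in control, 0.89 in hypoxia and 1.90 on array B. Plin2, which coats lipid droplets, stood at 6.72 and 6.80 on array A and the triple array, and between 4.87 and 5.22 on control, array B and hypoxia. These genes differed between the compared arrays by -0.33 and 0.08. Other lipid genes, among them Acot1 and Plin4, had another order and are described with the lower genes. Txnip, which responds to glucose, was not raised on array A (0.55, against 0.77 in control and 2.34 on array B).

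Cells sense oxygen through prolyl hydroxylases that mark the alpha subunits of hypoxia-inducible factor (HIF) for destruction by the VHL ubiquitin ligase. When oxygen falls, HIF binds short DNA elements with the core ACGTG or GCGTG and drives genes of glucose uptake, glycolysis, mitochondrial removal, glycogen storage, blood vessel growth and collagen modification. In the kidney, the transport work of the proximal tubule uses much oxygen, and low tubular oxygen is a known feature of the diabetic kidney.

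Several members of the HIF lists were the genes that differed most, and the stretches before their starts are shown here because they carry the HIF core. The sequences are the 250 bases before the gene start in the RefSeq table of mouse build GRCm38.p6, written 5′ to 3′ along the gene, and capitals mark every match to ACGTG or GCGTG on either strand (CACGT or CACGC on the shown strand). Of the 8 HIF list members with the largest differences, 8 had an entry and a match before at least 1 listed start, and the 5 with a single listed start are printed.
Mgarp, chr3:51396548-51396797, minus strand: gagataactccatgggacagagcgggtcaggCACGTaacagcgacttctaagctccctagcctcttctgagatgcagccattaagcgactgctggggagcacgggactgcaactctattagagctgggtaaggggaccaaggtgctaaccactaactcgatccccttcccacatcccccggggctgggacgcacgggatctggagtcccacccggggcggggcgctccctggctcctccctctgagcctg
Ankrd37, chr8:45999851-46000100, minus strand: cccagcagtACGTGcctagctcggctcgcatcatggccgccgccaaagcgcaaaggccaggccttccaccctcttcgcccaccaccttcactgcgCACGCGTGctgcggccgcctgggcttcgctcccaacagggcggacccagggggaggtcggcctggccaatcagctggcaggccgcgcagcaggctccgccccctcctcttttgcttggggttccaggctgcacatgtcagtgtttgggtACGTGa
Bnip3, chr7:138909507-138909756, minus strand: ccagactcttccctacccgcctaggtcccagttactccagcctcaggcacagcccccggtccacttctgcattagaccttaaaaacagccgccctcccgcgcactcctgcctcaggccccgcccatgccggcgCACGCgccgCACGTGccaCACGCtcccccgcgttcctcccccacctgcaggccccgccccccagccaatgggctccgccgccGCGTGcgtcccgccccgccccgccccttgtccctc
Ero1a, chr14:45318573-45318822, minus strand: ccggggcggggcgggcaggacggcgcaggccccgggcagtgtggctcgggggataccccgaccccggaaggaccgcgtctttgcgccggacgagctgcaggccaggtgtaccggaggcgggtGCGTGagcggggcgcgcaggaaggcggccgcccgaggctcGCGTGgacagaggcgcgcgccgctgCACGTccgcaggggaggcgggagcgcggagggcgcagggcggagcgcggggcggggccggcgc
Slc16a3, chr11:120948817-120949066, plus strand: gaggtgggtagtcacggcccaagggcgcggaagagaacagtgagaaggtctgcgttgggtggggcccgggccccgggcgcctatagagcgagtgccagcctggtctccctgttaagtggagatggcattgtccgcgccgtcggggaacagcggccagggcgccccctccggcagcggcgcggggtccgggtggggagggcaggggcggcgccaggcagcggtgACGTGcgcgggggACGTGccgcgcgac
Mgarp had 1 match, 219 bases before its start, and Ankrd37 had 4. Bnip3 had 5, of which a pair overlap in the palindrome CACGTG and were counted once on each strand. Ero1a had 3 matches, and Slc16a3 had 2 within 27 bases of its start. Over 27025 promoters of the same length, 38.6% held at least 1 such match, 16.8% at least 2 and 6.69% at least 3. These shares take the first listed start of each gene, whereas the 8 members were searched before all their starts. The 5 members printed have a single start. A match describes the letters of the window and is not evidence of binding. The members come from lists of HIF genes, and list members with smaller differences were not searched. The matches therefore do not bear on the measured differences.

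Between the compared arrays, 252 of 15633 genes (1.61%) were at least 2-fold higher in triple stimuli and 60 (0.384%) at least 2-fold lower. These shares of all genes are the ones to set beside the counts of list members below. The median difference was -0.03, 45.3% of genes had a difference above 0, and 91.8% lay within 1.5-fold of equality. Among 10695 bright genes, whose mean level on both arrays was at or above the 75th percentile, 119 (1.11%) were higher and 24 (0.224%) lower. For 221 probes spotted at least 3 times, the SD of the difference between spots of a probe had a median of 0.069 and a 95th percentile of 0.230, which covers error within an array only. Of 59 called genes with another probe on both arrays, the other probes had the same sign in 53 and were 2-fold the same way in 33.

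The largest difference of all measured genes was that of 2610528A11Rik, a gene known by its clone name, which lies outside the rule for named genes and was picked after its value was seen. Its levels were -1.30 in control, -1.48 and -1.50 on arrays A and B, 4.93 in hypoxia, 3.70 in triple stimuli and 3.09 with rapamycin. Triple stimuli exceeded array A by 5.18 on the log2 scale, and hypoxia exceeded control by 6.23, with the probe in rows 1 to 64 of the array. Mitochondrial and energy-store genes of the HIF lists held the largest difference among genes with a usual symbol. Mgarp, a mitochondrial protein induced by hypoxia (probe at chr3:51192355-51192414, build mm9), had levels of -0.95 in control, -0.86 and -0.98 on arrays A and B, 3.47 in hypoxia, 2.86 in triple stimuli and 2.41 with rapamycin. It was 13.2-fold higher in triple stimuli than on array A. Ak4, a mitochondrial adenylate kinase (mm9 chr4:101139464-101139523), had levels of -0.95, 0.34 and -1.05 at 20% oxygen and 3.64, 3.36 and 2.87 at 1%, in the same order of arrays. It was 8.15-fold higher in triple stimuli than on array A, although array A stood above the other arrays at 20% oxygen. Bnip3, a receptor that directs mitochondria to autophagy (mm9 chr7:146082760-146082819), rested at 3.76 to 4.02 at 20% oxygen and reached 6.90, 6.48 and 6.06 at 1%. Its difference was 2.46 (5.50-fold), and its other probes gave 2.33 and 2.84.

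Of the 12 measured genes of that list, 7 were at least 2-fold higher and 0 lower, with a median difference of 1.20. The other members called higher were the glycogen synthase Gys1 (1.51), the respiratory chain factor Higd1a (1.32), the lipid droplet protein Hilpda (1.21) and the mitophagy receptor Bnip3l (1.20). Pygl, the liver form of glycogen phosphorylase, was not well above background on array A and was at least 25.9-fold higher in triple stimuli. For genes not well above background on the dimmer array, here and below, "at least" sets the fold against a floor. The floor is the higher of the gene's own signal and the least signal well above background on that array. It is not a detection limit. Ugp2, Fundc1 and the respiratory subunit isoform Cox4i2 had small differences, from -0.26 to -0.03.

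Of 21 measured glycolysis and glucose uptake genes, 10 were at least 2-fold higher and 0 lower, with a median of 0.83. Between hypoxia and control, where 2.51% of 15821 genes were higher and 0.284% lower, 13 of the 21 were higher and the median was 1.27. Aldoc, an aldolase isoform, had levels of 1.39, 1.13 and 1.17 on control, array A and array B, and of 4.25, 3.33 and 2.79 in hypoxia, triple stimuli and triple stimuli with rapamycin. The difference between triple stimuli and array A was 2.20. Slc16a3, which exports lactate, went from 4.36 on array A to 6.44 in triple stimuli, and its probes gave 2.08 and 2.10. Pdk1, the kinase that restrains pyruvate oxidation in mitochondria, stood at 0.43 and 2.43 on the same arrays.

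The glucose transporter Slc2a1 (1.53), the phosphofructokinases Pfkl (1.38) and Pfkp (1.73), the regulator Pfkfb3 (1.26) and the enzymes Pgk1 (1.34), Aldoa (1.08) and Gpi1 (1.05) were also called higher, although quantile normalization put Aldoa at 0.90 and Gpi1 at 0.96. A second Pfkp probe gave 0.13, so its call rests on 1 probe, and the median over its probes was 0.93. Smaller differences were found for Ldha (0.62), Eno1 (0.55) and Gapdh (0.31), which make lactate, phosphoenolpyruvate and bisphosphoglycerate. Eno2 differed by -0.17 and was higher in hypoxia than in control (1.27), with levels of -0.29 in control, 1.02 on array A, 0.98 in hypoxia and 0.85 in triple stimuli.

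Within the oxygen-sensing list, 5 of 22 measured genes were called higher and 0 lower, with a median of 0.74, and 5 had a difference below 0. The subunits of HIF itself were near equality, since Hif1a differed by -0.10, Epas1 by 0.10 and their partner Arnt by -0.08. Ankrd37, an ankyrin-repeat gene induced by HIF (mm9 chr8:47082404-47082463), had levels of 1.03, 0.64 and 1.11 at 20% oxygen and 4.95, 4.33 and 3.79 at 1%, a 12.9-fold difference between triple stimuli and array A. Ddit4, an inhibitor of mTORC1, differed by 1.53, the prolyl hydroxylase Egln1 by 1.53, the clock repressor Bhlhe40 by 1.44 and the histone demethylase Kdm4b by 1.06. These were the genes called. The hydroxylase Egln3 was not well above background on any array at 20% oxygen and was at least 21.3-fold higher in triple stimuli than on array A, while Egln2 was lower by less than 2-fold (-0.67).

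Secreted factors and enzymes of matrix folding gave 5 of 16 higher and 0 lower, with a median of 0.81. Ero1a, an oxidase of protein folding in the endoplasmic reticulum, differed by 2.25, from -0.39 on array A to 1.86 in triple stimuli. The collagen-modifying enzymes P4ha2 (1.74) and Plod2 (1.45) and the stress gene Ndrg1 (1.07; 0.998 with another background correction) were also called higher. Vegfa, the growth factor of blood vessels, was called between hypoxia and control (1.93) and not in this comparison (0.85), as its level was 2.31 in control, 3.41 on array A, 4.24 in hypoxia and 4.26 in triple stimuli. The acid-base enzyme Car9, a common HIF target, differed by 0.11.

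**Figure D1:**
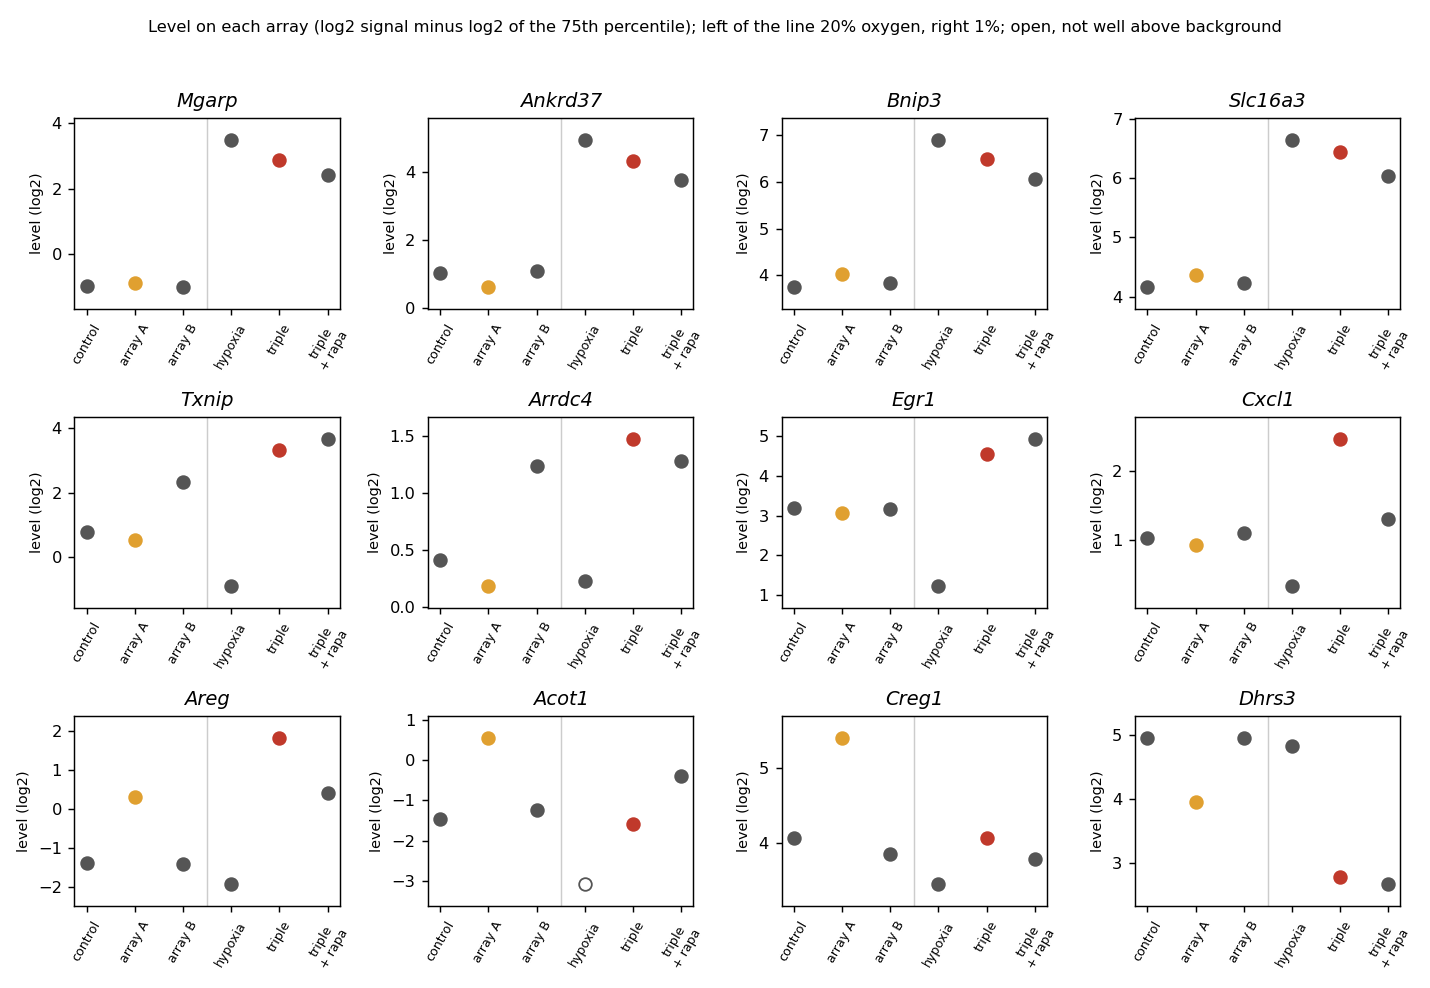
Level of 12 genes on each of the 6 arrays, as log2 signal minus the log2 of the 75th percentile of the array, with a separate vertical scale for each gene; orange is array A, red is triple stimuli, and an open point was not well above background. Mgarp, Ankrd37, Bnip3 and Slc16a3 are higher on the arrays at 1% oxygen than on those at 20%. Txnip, Egr1, Cxcl1 and Areg are lowest in hypoxia alone and higher in triple stimuli, and Creg1 and Acot1 are highest on array A.

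The difference between hypoxia and control used 2 arrays that the main comparison did not, and gave the oxygen step without glucose or palmitate. On 15257 genes well above background on these 4 arrays, 214 (1.40%) were higher in triple stimuli than on array A and 351 (2.30%) were higher in hypoxia than in control. Both lists held 137 genes, which is 64% of the first and 39.0% of the second. Among bright genes the shared part was 81.4% of the first list and 44.9% of the second. Lower genes overlapped less, with 10 in both lists, or 18.2% of 55 (0.360%) and 22.7% of 44 (0.288%). Across the 15257 genes, which are not independent replicates and share slide rows and spot positions between the comparisons, the differences had a Pearson correlation of 0.57 and a Spearman correlation of 0.48.

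For some HIF genes with large differences, the step from array A to triple stimuli was smaller than the step from control to hypoxia. Mgarp gave 3.72 and 4.43, Ak4 3.03 and 4.59, Bnip3 2.46 and 3.14, Aldoc 2.20 and 2.86, and Ddit4 1.53 and 2.29. Array A stood above control for Ak4 (0.34 against -0.95), Ddit4 (5.97 against 5.06) and Bnip3 (4.02 against 3.76). It was near control for Mgarp (-0.86 against -0.95) and below it for Aldoc. Triple stimuli stood below hypoxia for Mgarp, Ak4, Bnip3 and Aldoc, and above it for Ddit4. The difference was not tested, since each step has 1 array on each side. The list medians did not all have this order. The mitochondrial and energy-store list had 1.20 here and 1.69 between hypoxia and control, the oxygen-sensing list 0.74 and 0.61 (22 and 21 genes), and the secreted-factor list 0.81 and 0.73. In all, the steps were at least 2-fold apart for 90 genes (0.590%) with triple stimuli above and 150 (0.983%) with triple stimuli below.

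**Figure D2:**
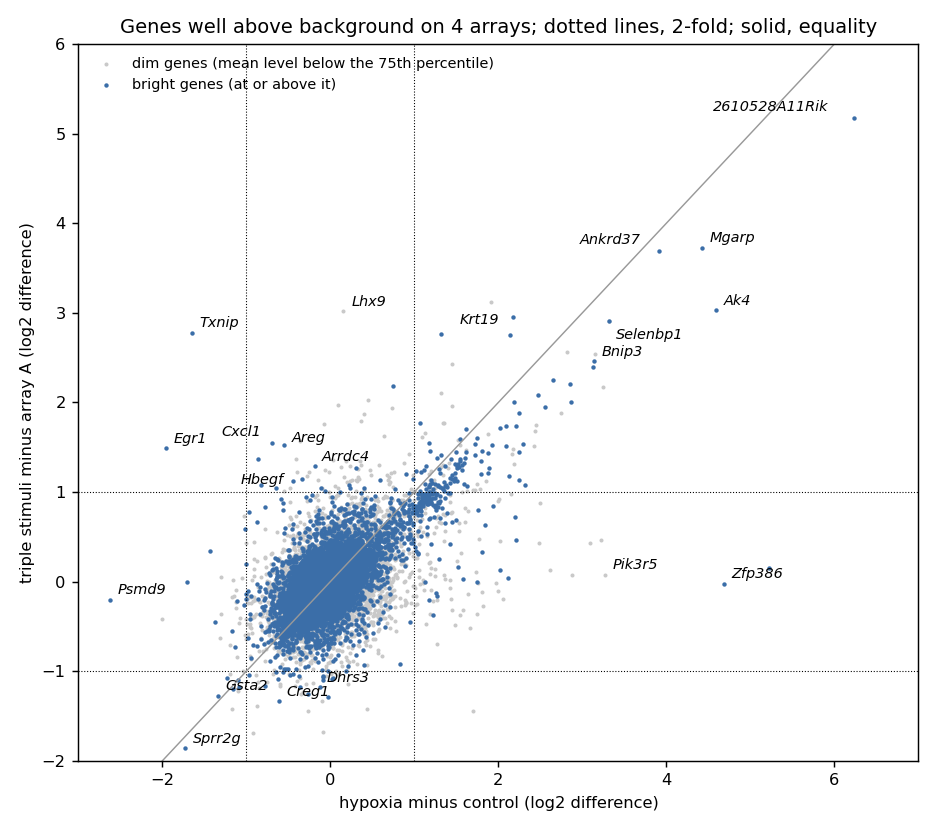
Log2 difference between triple stimuli and array A (vertical) against the log2 difference between hypoxia and control (horizontal) for 15257 genes; dotted lines mark 2-fold and the solid line equality. HIF genes such as Mgarp and Bnip3 lie upper right near the line, Txnip and Egr1 lie upper left, and Zfp386 and Psmd9 are genes that were low on 1 array alone.

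Txnip and Egr1 were the only genes among the 214 that were at least 2-fold lower in hypoxia than in control. Of the 55 lower genes, 1 was at least 2-fold higher in hypoxia, a dim probe in rows 1 to 64 that the files name by a transcript identifier. Txnip is an arrestin-domain protein that binds thioredoxin and limits glucose uptake, and its transcription follows glucose through the factors MondoA and ChREBP. Its levels (chr3:96365147-96365206, build mm9) were 0.77 in control, 0.55 and 2.34 on arrays A and B, -0.87 in hypoxia, 3.33 in triple stimuli and 3.68 with rapamycin. Hypoxia alone had the lowest level and the arrays with triple stimuli had the highest. The difference between triple stimuli and array A was 2.78 (6.85-fold; 2.36 by another probe), that between hypoxia and control was -1.65, and that between array B and control was 1.57. The 250 bases before the Txnip start are printed because they hold the paired element of those factors, CACGNG followed by any 5 bases and a further CACGNG, in capitals.
Txnip, chr3:96557707-96557956, plus strand: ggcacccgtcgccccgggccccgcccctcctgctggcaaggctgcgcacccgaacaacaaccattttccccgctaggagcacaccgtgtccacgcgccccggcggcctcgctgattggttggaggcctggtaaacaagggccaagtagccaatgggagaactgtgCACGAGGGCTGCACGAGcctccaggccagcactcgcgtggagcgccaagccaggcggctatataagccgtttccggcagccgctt
Of 27025 promoters, 14 (0.0518%) held this arrangement in the same window, searched on both strands.

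The arrestin-domain gene Arrdc4, another target of those factors, had levels of 0.41 in control, 0.19 and 1.23 on arrays A and B, 0.23 in hypoxia, 1.47 in triple stimuli and 1.28 with rapamycin. Its difference was 1.29 here, -0.18 between hypoxia and control, and 0.82 between array B and control. The list of glucose-responsive genes as a whole did not move one way. Of 10 measured, 3 were higher (Txnip, Arrdc4 and the repressor Klf10 at 1.04, or 0.96 with another background correction) and 0 lower, and 5 had a difference above 0 and 5 below. The factors themselves stayed near equality, with Mlx (the shared partner) at -0.26, Mlxip (MondoA) at -0.25 and Mlxipl (ChREBP) at -0.07. The list median of 0.41 moved with the dim members and was -0.0653 with bright genes alone.

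Immediate early genes respond within minutes to growth factors and stress. Of 21 measured, 21 had a difference above 0 (against 45.3% of all genes), 6 were at least 2-fold higher and 0 lower. The list median was 0.58 over 21 genes, and -0.14 between hypoxia and control over 19 genes. Egr1, a zinc-finger factor, had levels of 3.20 in control, 3.06 and 3.15 on arrays A and B, 1.24 in hypoxia, 4.55 in triple stimuli and 4.93 with rapamycin. Its difference was 1.49 here (2.81-fold) and -1.96 between hypoxia and control. The AP-1 factor Junb stood at -1.98 on array A and 0.12 in triple stimuli (2.11), and it was also higher in hypoxia than in control (1.32). Ier3 (1.29), Maff (1.20) and Fosl1 (1.05) were called as well, and Ier3 was also higher in hypoxia than in control (1.14). Fos differed by 1.45, from a dim level of -3.12 on array A. With another background correction Fos differed by 0.70 and Fosl1 by 0.93, which leaves 4 of 21 called.

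Jun, the partner of Fos, stood at 3.23 in control, 4.40 on array A, 5.29 in triple stimuli and 3.25 in hypoxia. Myc stood at 1.51, 2.96, 3.56 and 1.57 in the same order of arrays. For both genes, array A was above control and triple stimuli was above array A by less than 2-fold (0.89 and 0.60), with hypoxia alone near control.

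Ligands of the epidermal growth factor receptor and the phosphatases that restrain its MAP kinase pathway gave 5 of 17 higher and 0 lower. Over all genes, 1.61% were higher and 0.384% lower. The list median was 0.42. Among the ligands, Areg had levels of -1.38 in control, 0.31 and -1.41 on arrays A and B, -1.92 in hypoxia, 1.84 in triple stimuli and 0.42 with rapamycin. Areg thus stood highest in triple stimuli (difference 1.52) and lowest in hypoxia. Hbegf differed by 1.15, from 3.70 to 4.85, and by -0.34 between hypoxia and control. Ereg was not well above background on array A and was at least 2.64-fold higher. The phosphatases called were Dusp6 (1.55), Dusp5 (1.07) and Dusp8 (1.05), and the receptor gene Egfr differed by 0.20. Dusp6 was also higher in hypoxia than in control (1.18). With another background correction Dusp5 had 0.70 and Dusp8 0.92, which leaves 3 of 17 called.

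Inflammation genes of the NF-kB pathway gave 5 of 17 higher and 0 lower, against 1.61% and 0.384% of all genes. Their median was 0.57 over 17 genes, and -0.04 between hypoxia and control over 13 genes. Those 13 leave out Cxcl2 and Csf2, which were not well above background in hypoxia. The neutrophil chemokine Cxcl1 had levels of 1.04 in control, 0.93 and 1.10 on arrays A and B, 0.34 in hypoxia, 2.47 in triple stimuli and 1.31 with rapamycin. It was highest in triple stimuli and lowest in hypoxia, and the difference from array A was 1.55. Its neighbour Cxcl2 differed by 2.10 and the growth factor Csf2 by 2.02, the latter with no level well above background on control, array B or hypoxia. The feedback inhibitor Tnfaip3 (1.27) and the survival gene Birc3 (1.11; 0.68 with another background correction) were the others called. Lif, an interleukin-6 family cytokine, was at least 3.90-fold higher, whereas Ccl2, a monocyte chemokine, was equally high on array A and in triple stimuli (4.11 and 4.18, against 2.60 to 3.32 on control, array B and hypoxia).

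**Figure D3:**
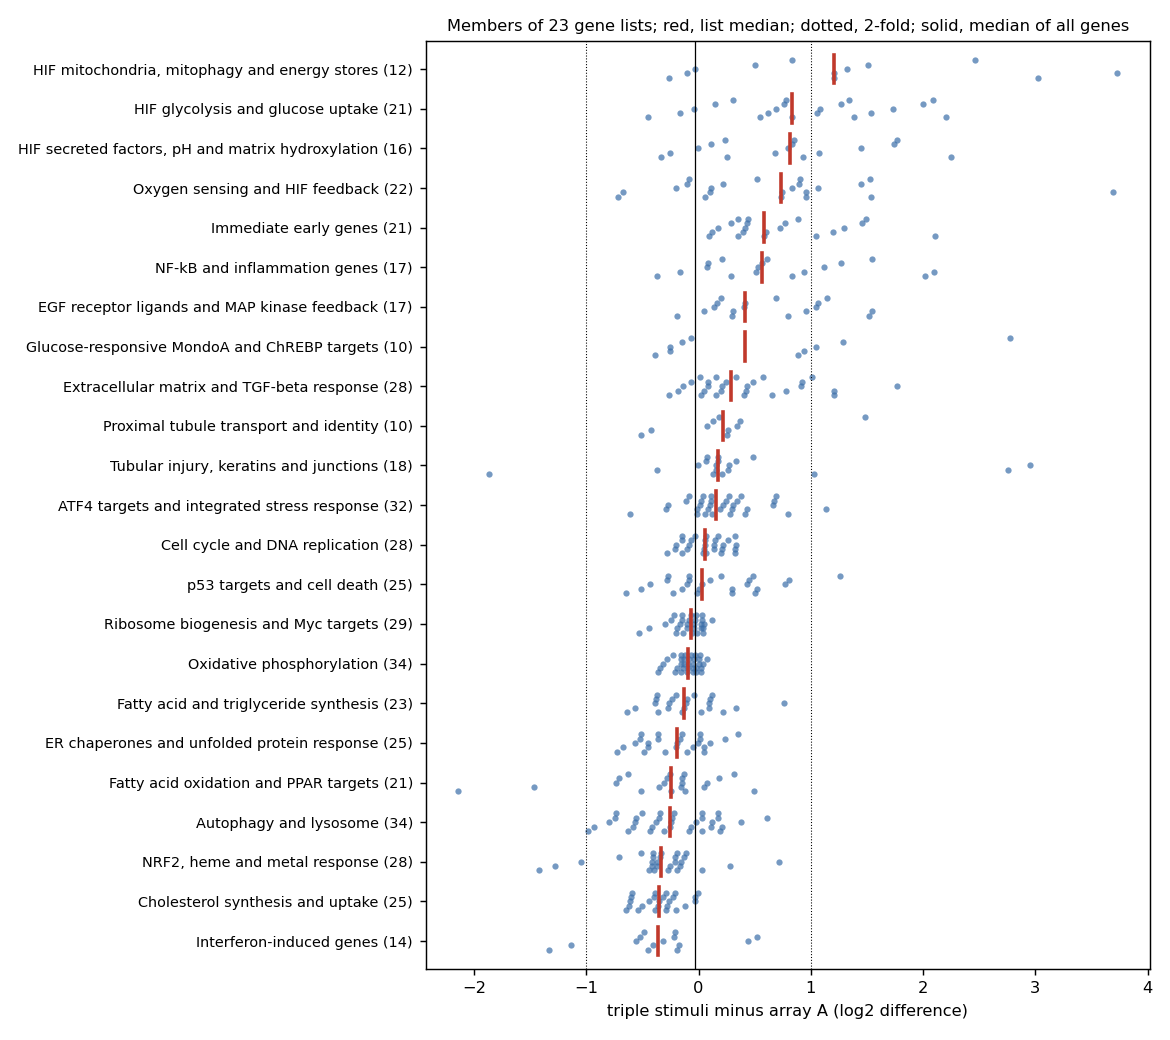
Log2 difference between triple stimuli and array A for every measured member of 23 gene lists (number measured in brackets); red bars are list medians, the solid line is the median of all genes and dotted lines are 2-fold. The 4 HIF lists and the immediate early list lie to the right, with all 21 immediate early genes above 0, and all 25 cholesterol genes lie below 0 with none past 2-fold.

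Keratins and a few other epithelial genes were among the largest differences. Krt42 had levels of 1.31, 1.12 and 1.47 at 20% oxygen (control, array A, array B) and 3.48, 4.07 and 3.23 at 1% (hypoxia, triple, triple with rapamycin), a 7.74-fold difference between triple stimuli and array A. Krt19, a keratin of simple epithelia and of injured tubules, had 3.69, 3.68 and 3.83 against 5.83, 6.44 and 5.51, a difference of 2.76. For both keratins triple stimuli stood highest. Krt8 (0.26), Krt18 (0.49) and Krt20 (0.08) differed little, as did the injury marker Havcr1 (0.27). Sprr2g, a cornified-envelope gene, went the other way, from 3.52 on array A to 1.66 in triple stimuli (-1.86), and by -1.73 between hypoxia and control. The injury and keratin list thus had 3 higher (with Sox9 at 1.03, or 0.81 and not called with another background correction) and 1 lower of 18, with a median of 0.18.

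Selenbp1, a methanethiol oxidase, had levels of 2.31 in control, 1.40 and 2.12 on arrays A and B, 5.62 in hypoxia, 4.30 in triple stimuli and 2.90 with rapamycin. The difference was 2.90 (7.49-fold), and the triple array lay between array A and hypoxia. Kctd11, an adaptor of a ubiquitin ligase, differed by 2.77 here and by 1.32 between hypoxia and control. In the matrix and TGF-beta list, 4 of 28 genes were higher (1.61% of all genes were) and 0 lower (0.384% of all genes), the median being 0.29. They included the adhesion protein Tgfbi (1.21; 0.79 and not called with another background correction) and the matricellular protein Ccn1 (1.01). Tgfbi was low on array A (-1.90) and in triple stimuli (-0.69), against 0.53 in control and 1.25 in hypoxia. The bicarbonate transporter Slc4a4 was the 1 of 10 proximal tubule genes called higher (1.48, and 0.78 with another background correction). Cldn2, the pore claudin of the proximal tubule, was well above background on the 3 arrays at 20% oxygen and on none at 1%, and was at least 2.07-fold lower than on array A.

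Genes lower in triple stimuli included some that were high on array A and others that were low on both triple arrays. Acot1, a PPAR alpha target that cleaves fatty acyl-CoA, was high on array A. Its levels were -1.45 in control, 0.55 and -1.25 on arrays A and B, -1.58 in triple stimuli and -0.39 with rapamycin, and it was not well above background in hypoxia. The difference was -2.14, or 4.40-fold, the lowest value among genes with a usual symbol. Acot2, its mitochondrial relative, was about as high on both, with 0.30 on array A and 0.14 in triple stimuli against -2.71 in control. The lipid droplet gene Plin4 differed by -1.46 (-0.68 with another background correction), and the fatty acid importer of mitochondria, Cpt1a, by -0.73. Fatty acid oxidation and PPAR targets had 2 of 21 lower (Acot1 and Plin4) and 0 higher, with a median of -0.24. Over all genes, 0.384% were lower and 1.61% higher.

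The lysosomal genes Hexa, Neu1 and Ctsa were highest on array A as well. Hexa, a hexosaminidase, had 0.66 in control, 1.92 and 0.41 on arrays A and B, 0.57 in hypoxia, 0.94 in triple stimuli and 0.76 with rapamycin. Neu1, a sialidase, stood at 5.51 on array A and 4.58 in triple stimuli, and Ctsa, its protective protein, at 7.14 and 6.34 (another Ctsa probe differed by -1.25). No member of the autophagy and lysosome list passed 2-fold. Of 34, 23 had a difference below 0 and 11 above, where 45.3% of all genes were above. The list median was -0.25, and -0.01 between hypoxia and control. Creg1, a secreted glycoprotein of the endolysosome, was called lower, with a level of 5.40 on array A and 3.45 to 4.06 on the other arrays, and its probes differed by -1.33, -1.24 and -1.43. Uap1l1 (-1.29), a relative of an enzyme of sugar nucleotide synthesis, had its highest level on array A too, 4.67 against 2.39 to 3.55.

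A different order was seen in Dhrs3, which reduces retinal and limits retinoic acid. Its levels were 4.96 in control, 3.95 and 4.97 on arrays A and B, 4.83 in hypoxia, 2.78 in triple stimuli and 2.66 with rapamycin. Array A was below control and triple stimuli below array A (-1.18), while hypoxia alone was near control. Aldh4a1, an enzyme of proline breakdown, followed the same order with 3.93, 3.12, 3.84, 3.57, 1.94 and 1.71. The interferon-induced gene Ifit3 had 0.90, 0.03, 0.79, 0.70, -1.11 and -0.27, a difference of -1.14, and Ifit3b differed by -1.33. With another background correction these were -0.83 and -0.54, so that 0 of 14 interferon genes were called. Without it these were the 2 of 14 interferon genes called lower, with 0 called higher and a list median of -0.36, and Irf7, not well above background on array A, was at least 4.25-fold higher.

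The glutathione transferases Gsta2, Gsta3 and Gsta4 were the genes of the NRF2 list called lower. Gsta2 had 1.88 in control, 3.01 and 2.25 on arrays A and B, 0.54 in hypoxia, 1.74 in triple stimuli and 0.66 with rapamycin. It differed by -1.27 here and by -1.34 between hypoxia and control, Gsta3 by -1.42 and -1.17, and Gsta4 by -1.04 and -0.97, the last of which is short of 2-fold. Gsta3 had -0.96 here with another background correction. These 3 were the only genes called of 28 measured. Of the 28, 25 had a difference below 0, where 45.3% of all genes were above 0. The median was -0.34 here and -0.48 between hypoxia and control (28 and 27 genes). Hmox1, the heme-degrading enzyme, was on the other side at 0.72.

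Cholesterol synthesis and uptake genes had small differences of 1 sign. Of 25 measured, 25 had a difference below 0 and 0 were past 2-fold, where 45.3% of all genes were above 0. The median was -0.35, against -0.03 for all genes, and 0.03 for the same list between hypoxia and control. Idi1, an isomerase of isoprenoid synthesis, had 5.36 in control, 4.57 and 4.94 on arrays A and B, 4.84 in hypoxia, 3.96 in triple stimuli and 3.58 with rapamycin. Nsdhl (-0.64), Mvk (-0.62) and Hsd17b7 (-0.60), enzymes of the same pathway, had the lowest differences beside Idi1 (-0.61). Chaperones of the endoplasmic reticulum had a median of -0.19 with 18 of 25 below 0 and 0 past 2-fold.

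Atf3, Ddit3 and Ppp1r15a, from the list of ATF4 targets and the integrated stress response, stood above control on both arrays and differed by less than 2-fold between them. Atf3 had levels of 0.39 in control, 3.38 and 0.59 on arrays A and B, 0.99 in hypoxia, 4.05 in triple stimuli and 3.38 with rapamycin. Ddit3, a stress factor linked to cell death, stood at 3.89 on array A and 4.01 in triple stimuli against 1.06 in control, and Ppp1r15a, which restores translation, at 5.72 and 6.06 against 3.18. The list had 1 of 32 called higher, the lipoprotein receptor Vldlr (1.13, and 0.48 by another probe), and 0 lower, with a median of 0.16. Over all genes, 1.61% were higher and 0.384% lower, and a single called gene is not read as a trait of the list. Oxidative phosphorylation (median -0.09, 34 genes), ribosome biogenesis (-0.06, 29), cell cycle (0.06, 28), and fatty acid and triglyceride synthesis (-0.13, 23) had 0 genes past 2-fold in either direction. Among p53 targets, 1 of 25 was higher, where 1.61% of all genes were, with a median of 0.03. It was the cell cycle inhibitor Cdkn1a (1.26, and 0.77 by another probe).

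The share of higher genes depended on signal and on the position of the spot. Among dim genes, 7.16% were higher in rows 1 to 64 of the spots, against 0.928% to 3.47% in the other 5 bands of 64 rows. Among bright genes the share lay between 0.872% and 1.49% in every band, and it was 0.991% in rows 1 to 64. The dim homeobox gene Lhx9, in row 38, is an example, with -2.96 on array A, 0.06 in triple stimuli and between -2.69 and -2.35 on the other arrays. Gsc2 (3.12), Serpina10 (3.17) and Aifm3 (1.57) are further dim genes of rows 6 to 9, and gave 1.71, 1.96 and 0.99 with another background correction. Acap1, also dim and in row 6, differed by 2.90 (2.01 with that correction). Its levels were -2.28 to -1.70 at 20% oxygen and 0.08 to 1.26 at 1%, and it differed by 3.32 between hypoxia and control. Bnip3, Ak4, Krt42, Dusp6, Tnfaip3, Gsta2 and Creg1 also have their probe in rows 1 to 64, and all are bright. The part of spot position in single differences was not tested.

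**Figure D4:**
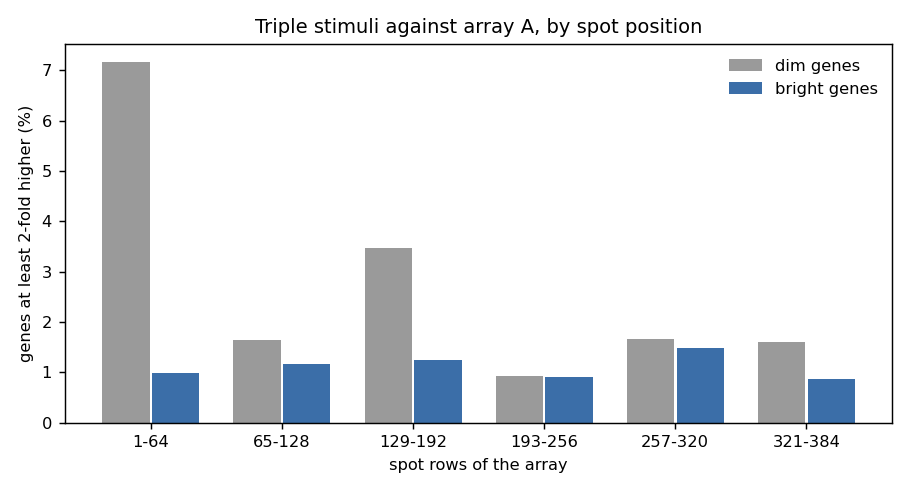
Share of genes at least 2-fold higher in triple stimuli than on array A, in percent, for 6 bands of 64 spot rows, dim genes in grey and bright genes in blue. Dim genes reach 7.16% in the first band, and bright genes stay between 0.872% and 1.49%.

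Some values were set by 1 array. Zfp386 had a level of -0.98 in control and 3.49 to 3.73 on the other arrays, so it differed by 4.68 between hypoxia and control and by -0.03 here. Psmd9 was low in hypoxia alone (-0.11, against 2.02 to 2.56 on the others), and its difference here was -0.20. Pik3r5 was high in hypoxia alone (1.03, against -2.24 to -0.97). Some probes were not well above background on array A. Of these, the largest folds over the floor in triple stimuli were 38.5-fold for Olfr1311, 30.5-fold for Rtl3 and 29.2-fold for Minar1. Their probes lie in rows 21, 94 and 5. The least level well above background was -4.62 on array A and -3.08 on the triple array. Slc22a6, at -3.66 on array A, was not well above background there, so that least level is not a detection limit. Rtl3 was well above background on the triple array alone. On the lower side, the sulfotransferase Chst2, well above background on array A alone, was at least 4.11-fold lower in triple stimuli, Klhl14 at least 3.67-fold and Rab3il1 at least 3.17-fold. Among other lower genes, Wnt4 differed by -1.69 (-1.35 by another probe), Ttc39a by -1.38 (-0.81 with another background correction) and Nceh1, a hydrolase of cholesterol esters, by -1.17. Ptgds (-1.68), Hvcn1 (-1.50) and Elovl4 (-1.44) were dim, and gave -0.90, -0.89 and -0.70 with another background correction.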

How the data were processed

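The authors read 1-colour (Cy3) scans with Agilent Feature Extraction 10.7.3.1, per the submitters' processing notes, and per the file headers each spot's intensity was background-subtracted and detrended within its array, without scaling to the other arrays. The deposited value table holds a ratio of that signal to the 75th percentile of its array, a scale and direction read from its values, and no centring was found. Its column medians were 0.0505 for control, 0.0516 for high glucose, 0.0535 for high FFAs, 0.0562 for hypoxia, 0.0544 for triple stimuli and 0.0561 for triple stimuli with rapamycin. Each table column matched 1 scanner file (SD of the log2 difference at most 2.9e-07), with high glucose and high FFAs exchanged.

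From the scanner files, log2 processed signals were reduced by the log2 75th percentile of non-control spots, 683 spots with an outlier mark were left out (13 of 55681 probes were lost), and spots of a probe were averaged. The probe brightest on average over the 6 arrays stood for a gene name; 22321 of 34733 names matched RefSeq. Genes had to be well above background on both arrays. For a probe detected on 1 array, the dim side took a floor. This was the higher of the probe's own signal and the least signal called well above background on that array. Some probes above that least signal were not called, so the fold is set against a floor and is not a strict bound. Probe positions are on mm9 as the files give them, and exons were not annotated.

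The members, the 23 gene lists and the rule for named genes were chosen with earlier results of these data known. Named were the 15 largest and 15 smallest differences, the 10 of each among bright genes, 3 bounds a direction, 4 members of each list, and 8 a direction by the gap to the hypoxia difference; further list members are named after their values were seen. No test was run. Scripts used Python 3.11.15, R 4.3.3 and limma 3.58.1. The 2-fold call was run on simulated data with shifts beyond the cut and spot error within an array only. That run does not cover error between arrays, spot position or background. Alternatives covered scaling, background correction (normexp with an offset of 50), dim probes, probe choice, spot position, the value table and the fold threshold. Values of some list members are not reported here.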

Additional observations from a re-analysis of the deposited data

Results flagged for a closer look

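In Txnip and Egr1 the step from array A to triple stimuli and the step from control to hypoxia went in opposite directions, each by at least 2-fold. A further dim probe, named by a transcript identifier, was lower here and higher in hypoxia, each by at least 2-fold. Txnip differed by 2.78 and -1.65, and Egr1 by 1.49 and -1.96. With 1 array on each side of each step, the difference between the steps was not tested.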

How the results depend on the processing

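The main counts were 252 higher and 60 lower, 137 higher and 10 lower in both oxygen comparisons, and 240 genes where the 2 oxygen differences are 2-fold apart. Quantile normalization (238 and 66), the value table (247 and 63) and leaving out the first 64 spot rows (180 and 49; chosen after seeing the data) kept the higher and lower counts within 1.5 times. The normexp background gave 142 higher, 21 lower, 5 lower in both and 92 apart. Genes detected on at least 1 array gave 671, 97, 16 and 427, bright genes 119, 24, 6 and 74, and the last 2 of 6 bands of spot rows 68, 20, 6 and 45, with 48 higher in both. A 3-fold threshold gave 70 higher and 4 lower, and a 1.5-fold threshold 819 and 456. Fewer or more genes enter the last 3 filters by construction, and the cause of the normexp change was not tested. The median of the glucose-responsive list reversed to -0.0653 with genes on at least 1 array and with bright genes. It was 0.17 with normexp and 0.89 without the first 64 rows. Over the named genes, 1080 of the recomputed differences lay within 1.5-fold of the reported value and 14 did not. Of 88 called genes among the named genes and list members, 22 were under 2-fold with normexp, 4 with the median over probes and 2 with quantile normalization, and 0 changed sign. Zfp386, near 0, ranged from -0.08 to 0.0006. Single arrays allow no replicate to be left out. No paired analysis was possible because each group has 1 array. Signals near background limit the dim genes, whose differences moved most under normexp, such as Lhx9 (1.81) and Gsc2 (1.71).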
